A study of Mus musculus with 5 samples.

Results

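Ctla2a-high Cd3+ cells were T cells of mouse skin chosen by their transcripts, and 1002 of them were found among 6162 cells kept. Cells in which 200 or more genes were seen, and in which no more than 10% of UMIs (unique molecular identifiers, 1 per captured transcript molecule) were mitochondrial, were kept. A cell was counted as Cd3+ with 2 or more UMIs summed over Cd3d, Cd3e and Cd3g, and as Ctla2a-high with 5 or more Ctla2a UMIs, 0 UMIs of Cd4, Cd8b1 and Foxp3, and 0 UMIs of the division genes Mki67 and Top2a. The 1002 cells made up 48.2% of 2080 Cd3+ cells, and the remaining 1078 Cd3+ cells were the population they were set against. Since 9 genes chose the cells, the levels of those genes are given below as a description only, and so are those of Areg, Sytl3, Cd7 and Rgs1, which had been picked as markers of these cells from the same data.

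The cells came from 5 droplet libraries of live CD45+ leukocytes, sorted from digested dermis of C57BL/6 mice and read from the 3′ end of the transcripts. One library, P50_Depil5D, was labelled for depilation and 5 days. Its label does not say whether the skin was depilated or collected at postnatal day 50. The others were labelled P45, P50, P63 and P80 for 45, 50, 63 and 80 postnatal days, with no treatment named, all within the resting phase of the hair cycle (telogen). Each group was 1 library, and the labels give neither the number of animals in a library nor their sex. P63 and P80 held 28 and 13 of the Ctla2a-high cells, so their values carry wide counting error.

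Dendritic epidermal T cells are gamma-delta T cells that seed the mouse epidermis before birth, keep an invariant receptor and extend dendrites between keratinocytes. They read stress signals of the epithelium through NK-type receptors and release growth factors and chemokines that act on keratinocytes and other leukocytes. Ctla2a and its neighbour Ctla2b encode small proteins that resemble the propeptide of cathepsins and inhibit cysteine proteases in the mouse. Areg encodes amphiregulin, a ligand of the epidermal growth factor receptor, and Xcl1 encodes a chemokine for Xcr1+ dendritic cells.

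The label was checked against genes known from epidermal gamma-delta T cells. Of 22 such genes that could be tested, 15 were higher in the Ctla2a-high cells than in other Cd3+ cells and 3 were lower, where 8.02% of all genes tested were higher and 6.24% lower. The 3 lower genes were Gzmb, Icos and Plet1. The 15 include Sytl3, Cd7, Rgs1 and Areg, which were picked from these data and are no support for the name. Against other Cd3+ cells that differed in Ctla2a alone, 11 of 20 were higher and 1 was lower. In that comparison 5.34% of all genes tested were higher and 4.69% lower. The 11 again include Sytl3, Cd7, Rgs1 and Areg. The table held 0 T cell receptor constant or variable genes, so the gamma-delta receptor itself could not be read. The labelled tissue was dermis, and whether these cells lay in epidermis carried along with it was not tested. Itgae, the integrin that binds E-cadherin on keratinocytes, was detected in 23.8% of Ctla2a-high cells and 24.1% of other Cd3+ cells, and in 15.9% and 13.4% of cells thinned to 1000 UMIs. In P45 it was detected in 42.7% and 25.5%, unthinned. Ccr10, a skin-homing receptor, had 1.32, 15.7, 1.79, 12.7 and 0 CPM (counts per 1000000 UMIs of the population) in the Ctla2a-high cells of P50_Depil5D, P45, P50, P63 and P80. The cells are therefore called Ctla2a-high Cd3+ cells below.

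The region before the start of Ctla2a and Ctla2b is shown because the transcripts of both genes were high in the same cells, and that of Areg because its level differed most between the depilated and the P50 library among the label's markers. Each run is the 250 bases before the gene's start, 5′ to 3′ on the gene's strand, from RefSeq on GRCm38.p6. Capitals mark an AP-1 element (TGACTCA or its reverse TGAGTCA), a cAMP response element (TGACGTCA) or a TATA box (TATAAA or TTTATA), searched on both strands.
Ctla2a, chr13:60936626-60936875, minus strand: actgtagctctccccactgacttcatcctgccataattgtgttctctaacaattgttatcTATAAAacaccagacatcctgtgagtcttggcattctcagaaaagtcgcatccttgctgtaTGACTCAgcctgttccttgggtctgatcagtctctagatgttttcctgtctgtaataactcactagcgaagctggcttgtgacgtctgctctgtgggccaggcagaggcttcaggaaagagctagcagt
Ctla2b, chr13:60897448-60897697, minus strand: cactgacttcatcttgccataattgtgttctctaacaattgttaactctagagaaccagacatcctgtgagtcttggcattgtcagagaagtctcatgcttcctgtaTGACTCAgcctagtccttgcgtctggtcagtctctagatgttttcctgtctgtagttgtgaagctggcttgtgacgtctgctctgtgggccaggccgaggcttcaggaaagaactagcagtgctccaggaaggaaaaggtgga
Areg, chr5:91139349-91139598, plus strand: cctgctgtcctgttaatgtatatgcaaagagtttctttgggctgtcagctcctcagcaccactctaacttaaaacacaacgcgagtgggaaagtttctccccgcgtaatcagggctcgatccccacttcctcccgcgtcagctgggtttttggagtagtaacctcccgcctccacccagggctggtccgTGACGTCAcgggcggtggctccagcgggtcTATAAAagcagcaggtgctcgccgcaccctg
The Ctla2a and Ctla2b runs were identical at 209 of 228 aligned bases, or 91.7%. Both held TGACTCA, 129 bases before the start of Ctla2a and 143 bases before that of Ctla2b. The Ctla2a run, the first of 2 starts listed for the gene, also held TATAAA 190 bases before the start. The Areg run held TGACGTCA 61 bases and TATAAA 31 bases before the start. Over 27025 promoters of the same length, 4.43% held the AP-1 letters, 1.62% the cAMP response element and 13% the TATA letters. These matches describe the letters and not a factor's binding.

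Ctla2a-high cells were frequent in P50_Depil5D and P50 and scarce in P63 and P80. They numbered 449 of 697 Cd3+ cells in P50_Depil5D, 150 of 526 in P45, 362 of 621 in P50, 28 of 153 in P63 and 13 of 83 in P80. As shares of Cd3+ cells these were 64.4% (exact Clopper-Pearson 95% interval 60.7 to 68.0) in P50_Depil5D, 28.5% (24.7 to 32.6) in P45, 58.3% (54.3 to 62.2) in P50, 18.3% (12.5 to 25.4) in P63 and 15.7% (8.61 to 25.3) in P80. The intervals of P50_Depil5D and P50 lay above those of the other 3 libraries and met each other. The intervals here and below cover counting error only, and with 1 library per group no test between libraries was possible.

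The share of Cd3+ cells in P50_Depil5D was 1.11 times that in P50 (exact conditional 95% interval 0.960 to 1.27). The ratio intervals in this paragraph treat the counts as Poisson rates, which makes them too wide for shares this large. Whether this ratio exceeded counting error is therefore not settled by its interval. Of all cells kept, Ctla2a-high cells made up 30.1% in P50_Depil5D and 24.8% in P50, a ratio of 1.21 (1.05 to 1.4). The share of Cd3+ cells in P50 was 2.04 times that in P45 (1.69 to 2.49). In P80 it was 0.549 times that in P45 (0.286 to 0.968), but when Ctla2a had to reach 15 per 10000 UMIs of a cell in place of 5 UMIs, the share was 34.9% in P80 and 28.3% in P45, so the direction turned. The median Ctla2a-high cell had 1267, 2647.5, 1150.5, 1543.5 and 901 UMIs in P50_Depil5D, P45, P50, P63 and P80, so a fixed number of UMIs was easier to reach in P45. After cells had been thinned to 1000 UMIs and shallower cells left out, the shares were 62.5%, 19.4%, 61.8%, 14.4% and 6.06% in the same order. Shallower cells numbered 170, 0, 285, 9 and 189 of the cells kept, and the share of P80 then rested on 2 of 33 cells.

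**Figure D1:**
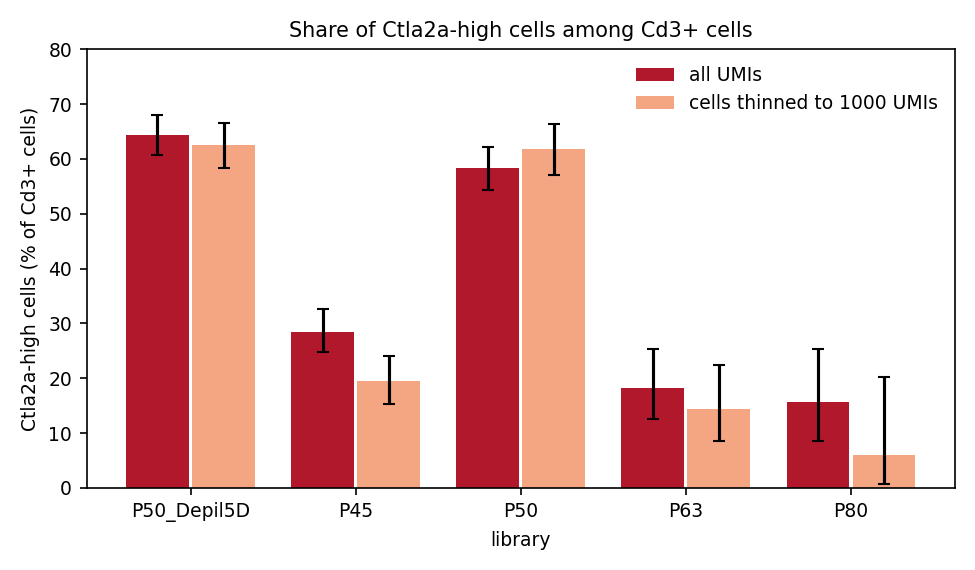
Share of Cd3+ cells that were Ctla2a-high (y axis, percent) in each library (x axis), from all UMIs (dark bars) and after thinning to 1000 UMIs with shallower cells left out (light bars). Lines are exact 95% intervals, which cover counting error only. P50_Depil5D and P50 stand at 64.4% and 58.3%, and P80 at 15.7%.

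Within the Cd3+ cells Ctla2a had no gap at the threshold, but the numbers of cells around it differed between libraries. These numbers are of Cd3+ cells with 0 UMIs of Cd4, Cd8b1, Foxp3, Mki67 and Top2a. In P50_Depil5D 68 cells had 0 Ctla2a UMIs, and 6, 15, 21 and 32 cells had 3, 4, 5 and 6. In P50 65 cells had 0, and 18, 12, 13 and 10 had 3 to 6. In P45 115 cells had 0, and 25, 23, 15 and 15 had 3 to 6. The median Ctla2a-high cell had 16 Ctla2a UMIs in P50_Depil5D, 11 in P45, 18.5 in P50, 9 in P63 and 9 in P80, and the highest cell had 88, 49, 77, 20 and 26 in the same order. Of the 1078 other Cd3+ cells, 460 had 0 Ctla2a UMIs, 469 had 1 to 4, and 149 had 5 or more and were left out by another gene of the rule. In 127 of these 149 that gene was Mki67 or Top2a. The 52 cells just inside the threshold, with 5 Ctla2a UMIs, had 570 CPM of Areg, 1550 of Xcl1, 2580 of Rgs1 and 2150 of Cd7. The 55 cells just outside it, with 4, had 455, 919, 1380 and 2110 CPM of the same genes. Both groups are pooled over libraries in unlike parts, and the direction differed between libraries. Within P50, cells with 5 had 281 CPM of Areg, 1360 of Xcl1 and 2070 of Cd7, and cells with 4 had 776, 2980 and 4360. Within P50_Depil5D all of these genes ran the pooled way, with Areg at 1760 CPM in cells with 5 and 909 in cells with 4.

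**Figure D2:**
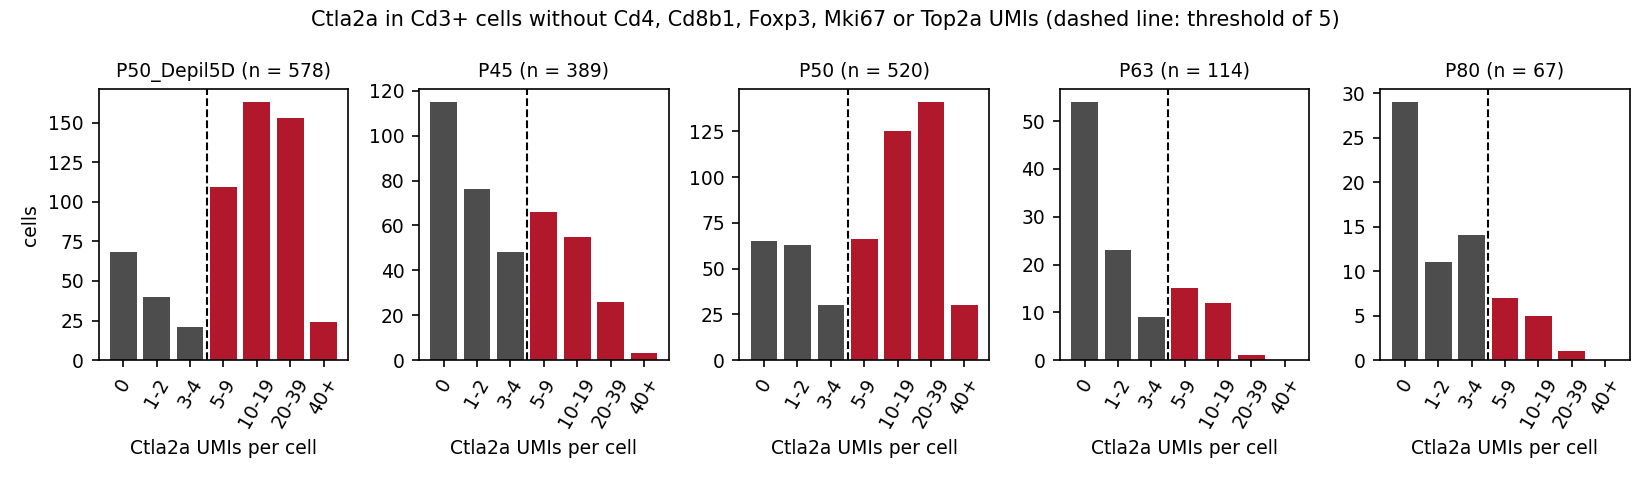
Number of cells (y axis, own scale in each panel) by Ctla2a UMIs per cell (x axis) in each library, among Cd3+ cells with 0 UMIs of Cd4, Cd8b1, Foxp3, Mki67 and Top2a. Red bars right of the dashed line are the Ctla2a-high cells. Most cells of P50_Depil5D and P50 lie right of the line, and most of P45, P63 and P80 lie left of it.

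Levels of other genes followed Ctla2a in steps when Cd3+ cells with 0 UMIs of the lineage and division genes were binned by Ctla2a UMIs over all libraries. In the bins 0, 1 to 2, 3 to 4, 5 to 9, 10 to 19, 20 to 39 and 40 to 88 UMIs, Areg had 79.6, 173, 252, 674, 1530, 2010 and 2350 CPM. Xcl1 had 139 CPM in the lowest bin and 4230 in the highest. Il7r, the interleukin 7 receptor, ran the other way, from 279, 116 and 120 CPM below the threshold to 64.9, 30.6, 16.3 and 0 CPM above it. The higher bins drew more of their cells from P50_Depil5D and P50, so library and Ctla2a level move together in this pooled order. Within P45 alone, Areg had 149, 290, 609 and 1030 CPM in the 4 bins from 5 to 9 upward, the last of them 3 cells. Within P50_Depil5D it had 1550, 2520, 2630 and 2760 CPM in those bins. In the bins 0, 1 to 2 and 3 to 4, Areg had 178, 125 and 465 CPM in P50_Depil5D and 43.8, 164 and 159 CPM in P45.

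Across Ctla2a-high cells thinned to 1000 UMIs, Areg was weakly correlated with Ctla2a. Spearman's rho between Ctla2a and Areg was 0.10 over 379 cells of P50_Depil5D, 0.12 over 150 cells of P45 and 0.03 over 272 cells of P50. Between Areg and the summed immediate early genes it was 0.28, 0.25 and 0.19 in the same libraries, and between Xcl1 and Areg it was 0.09, -0.03 and 0.08. These values are descriptions of sparse counts from cells that share a library.

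The Ctla2a-high cells were compared with the other Cd3+ cells of the same library to find what else set them apart. UMIs were summed per library and population, which gave 5 pairs of sums, and tested with edgeR's quasi-likelihood test with Benjamini-Hochberg adjustment over all genes. Of 5111 genes tested, 410 (8.02%) were higher and 319 (6.24%) were lower in Ctla2a-high cells at an adjusted p under 0.05, and the median log2 fold change of all genes was -0.02. The 5 libraries stand for different ages and 1 depilation, so the p-values measure how steady a difference was over these libraries and not over animals. Without P50 the counts were 183 higher and 77 lower, and without P50_Depil5D 199 and 84. The other Cd3+ cells included 201 with a lineage gene and 243 with a division gene, which the rule kept out of the Ctla2a-high cells. Against other Cd3+ cells that differed in Ctla2a alone, 172 of 3223 genes (5.34%) were higher and 151 (4.69%) were lower. The shares of all genes called in each comparison are the background for the list counts below.

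The genes that chose the cells were as the rule made them. Ctla2a (chr13:60934155-60936625, minus strand, mm10) had 11000, 4010, 13700, 3610 and 6750 CPM in the Ctla2a-high cells of P50_Depil5D, P45, P50, P63 and P80, against 2300, 462, 2970, 447 and 612 CPM in the other Cd3+ cells. Cd3e, a chain of the T cell receptor complex, had 3210, 1200, 3590, 1200 and 2970 CPM in Ctla2a-high cells, against 1050, 404, 1370, 447 and 729 CPM. Both were higher in Ctla2a-high cells of every library. Cd3d and Cd3g averaged 1550 and 4780 CPM over the libraries in Ctla2a-high cells, against 729 and 1790 CPM in other Cd3+ cells.

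The 4 remaining markers of the label were also higher in the Ctla2a-high cells of every library. Areg (chr5:91139599-91148432, plus strand) had 2330, 299, 1490, 190 and 540 CPM in Ctla2a-high cells of P50_Depil5D, P45, P50, P63 and P80, against 493, 92.3, 568, 69.6 and 153 CPM in other Cd3+ cells. The populations differed within each library, by 3.18-fold on average, but their ranges over libraries overlapped, since other Cd3+ cells of P50 were above Ctla2a-high cells of P45, P63 and P80. Areg was seen in 47.2% of Ctla2a-high cells and 20.9% of other Cd3+ cells, at median depths of 1305 and 1957 UMIs, and in 4.78% of keratinocyte-gated cells, at a median depth of 2413 UMIs. Keratinocytes can express Areg themselves, so that last share is not a pure measure of free RNA.

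Cd7, an immunoglobulin-family receptor, had 3940, 1660, 4950, 1400 and 3150 CPM in Ctla2a-high cells of P50_Depil5D, P45, P50, P63 and P80, against 1110, 473, 1340, 380 and 612 CPM in other Cd3+ cells. No Ctla2a-high value of Cd7 was below a value of the other cells. Rgs1, which turns off G protein signals from chemokine receptors, had 7580, 1320, 5260, 2300 and 3240 CPM, against 2400, 444, 1830, 610 and 600 CPM. Sytl3, a synaptotagmin-like partner of Rab27 in vesicle release, had 551, 84.1, 534, 75.9 and 180 CPM, against 135, 22.9, 112, 13.4 and 30.6 CPM. For both genes P45 stood at or near the low end of the Ctla2a-high cells, and the ranges of the populations overlapped.

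Of the cytokine genes, Xcl1 had the largest rise. It had 2780, 880, 3430, 1000 and 1530 CPM in Ctla2a-high cells of P50_Depil5D, P45, P50, P63 and P80, against 881, 284, 1140, 348 and 282 CPM in other Cd3+ cells. It was higher in every library, but the Ctla2a-high values of P45 and P63 lay under the 1140 CPM of the other cells of P50. The log2 fold change of Xcl1 was 1.62 ± 0.14 (SE, adjusted p = 3.9e-07, edgeR), and it was detected in 82.3% of Ctla2a-high cells, 33.3% of other Cd3+ cells and 3.50% of keratinocyte-gated cells. Il13, a type 2 cytokine, was low and higher in all 5 libraries, at 53.3 CPM on average against 21.5 (log2 1.41 ± 0.28, adjusted p = 0.0017, edgeR). Against other Cd3+ cells that differ in Ctla2a alone, the call for Il13 was lost (edgeR adjusted p = 0.051).

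Ccl5, a chemokine of memory and cytotoxic T cells, was the cytokine gene with the largest fall. It had 45, 115, 69.9, 164 and 45 CPM in Ctla2a-high cells of P50_Depil5D, P45, P50, P63 and P80, against 309, 455, 285, 733 and 141 CPM in other Cd3+ cells. The ranges overlapped only between the 164 CPM of P63 and the 141 CPM of P80, which rests on 23 UMIs (log2 -2.26 ± 0.18, adjusted p = 1.6e-07, edgeR). Of 26 cytokine and chemokine genes listed, 12 could be tested: Xcl1, Il13, Tnf and Tnfsf8 were higher, Ccl5, Cxcl2 and Ltb were lower, and the list's median log2 fold change was 0.05. Of 20 growth factor genes for epithelium, 6 could be tested, where 8.02% of all genes tested were higher. Areg alone was called in this list, and it had been picked as a marker from these data. Mif, a cytokine in that list, averaged 546 CPM in Ctla2a-high cells and 613 CPM in other Cd3+ cells, and was above Areg in the Ctla2a-high cells of P45, P63 and P80. Osm, oncostatin M, averaged 3.56 CPM in Ctla2a-high cells against 5.62 CPM in other Cd3+ cells, and was seen in 0.998% and 2.13% of the cells.

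NK-type receptors and their adaptors were higher as a group. Of 16 genes tested 13 were higher and the other 3 were not called, with a median log2 fold change of 1.33. The 13 include Cd7, which had been picked as a marker from these data and is no support. Klrd1, Cd7, Cd244, Klrc1, Klrk1, Fcer1g, Cd160 and Hcst were also among the genes of epidermal gamma-delta T cells counted above. Of all genes tested, 8.02% were higher. Against other Cd3+ cells that differ in Ctla2a alone, 9 of 13 were higher, again with Cd7 among them, and the median was 1.24. Klrd1, the CD94 chain, had 833, 546, 1210, 367 and 855 CPM in Ctla2a-high cells of P50_Depil5D, P45, P50, P63 and P80, against 211, 158, 237, 115 and 165 CPM in other Cd3+ cells. The populations did not overlap (log2 1.94 ± 0.16, adjusted p = 2.1e-07, edgeR). Fcer1g, a signalling adaptor of activating receptors, had 2730, 2010, 3410, 1280 and 1670 CPM, against 884, 878, 1260, 511 and 667 CPM, again without overlap (log2 1.29 ± 0.15, adjusted p = 7e-06, edgeR).

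Klrk1, the stress receptor NKG2D, averaged 601 CPM in Ctla2a-high cells against 210 CPM in other Cd3+ cells (log2 1.34 ± 0.16, adjusted p = 1.2e-05, edgeR). Hcst, the adaptor of NKG2D, averaged 581 against 386 CPM and only just passed (adjusted p = 0.048, edgeR). Klrb1f averaged 74.0 against 13.7 CPM, Cd244 134 against 49.9 CPM, and the nectin receptor Cd96 136 against 56.8 CPM. Lag3, an inhibitory receptor for MHC class II, had 190, 88, 188, 127 and 180 CPM in Ctla2a-high cells of P50_Depil5D, P45, P50, P63 and P80, against 41.5, 26.9, 57.7, 16.1 and 0 CPM, with no overlap (log2 2.02 ± 0.26, adjusted p = 3e-05, edgeR). The defining NK cell genes Ncr1 and Eomes were too low to test, and the 12 NK and ILC1 genes together had 204 to 1200 CPM in Ctla2a-high cells and 184 to 764 CPM in other Cd3+ cells, highest in P45 in both.

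Granule genes were higher in Ctla2a-high cells, but without Gzmb. Of 9 cytotoxic granule genes tested, 6 were higher and 1 was lower, with a median log2 fold change of 1.27. Of all genes tested, 8.02% were higher and 6.24% lower. Nkg7, a granule membrane protein, had 3450, 2040, 4330, 1540 and 3020 CPM in Ctla2a-high cells of P50_Depil5D, P45, P50, P63 and P80, against 1210, 550, 1490, 819 and 655 CPM in other Cd3+ cells. No value of the Ctla2a-high cells was below one of the other cells (log2 1.49 ± 0.15, adjusted p = 2.4e-06, edgeR). Prf1, perforin, averaged 58.0 against 14.2 CPM (log2 1.74 ± 0.30, adjusted p = 0.00067, edgeR), and Serpinb6b, a serpin of the granzyme inhibitor group, 156 against 32.9 CPM. Gzmb, granzyme B, averaged 12.2 CPM in Ctla2a-high cells and 64.8 CPM in other Cd3+ cells (log2 -3.16 ± 0.48, adjusted p = 0.00014, edgeR), and was detected in 0.798% and 6.40% of the cells. In P80 alone it ran the other way, at 45 CPM in Ctla2a-high cells against 12.2 CPM, values that rest on 1 and 2 UMIs.

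Of the cathepsins and their inhibitors, 5 of 12 tested were higher and the other 7 were not called, with a median log2 fold change of 0.36. The 5 include Ctla2b, and 8.02% of all genes tested were higher. Against other Cd3+ cells that differ in Ctla2a alone, 3 of 12 were higher and 1 was lower, where 5.34% of all genes were higher and 4.69% lower. Ctla2b (chr13:60895350-60897447, minus strand) had 1060, 415, 1200, 316 and 720 CPM in Ctla2a-high cells of P50_Depil5D, P45, P50, P63 and P80, against 258, 70.1, 265, 45.5 and 85.7 CPM in other Cd3+ cells, with no overlap (log2 2.31 ± 0.17, adjusted p = 6.2e-08, edgeR). Ctla2b is a near copy of Ctla2a. Of the 50-base windows in the last 500 bases of its transcripts 9.5% also occurred in those of Ctla2a, so part of its UMIs may be uncertain between the genes. Ctsw, a cathepsin of cytotoxic lymphocytes, averaged 1050 against 426 CPM, and Cst7, cystatin F, 304 against 119 CPM. Among 10 genes of granule release, Sytl3 and its partner Rab27a were higher and the other 8 were not called. Sytl3 had been picked as a marker from these data, and 8.02% of all genes tested were higher. Rab27a averaged 85.2 against 19.4 CPM.

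**Figure D3:**
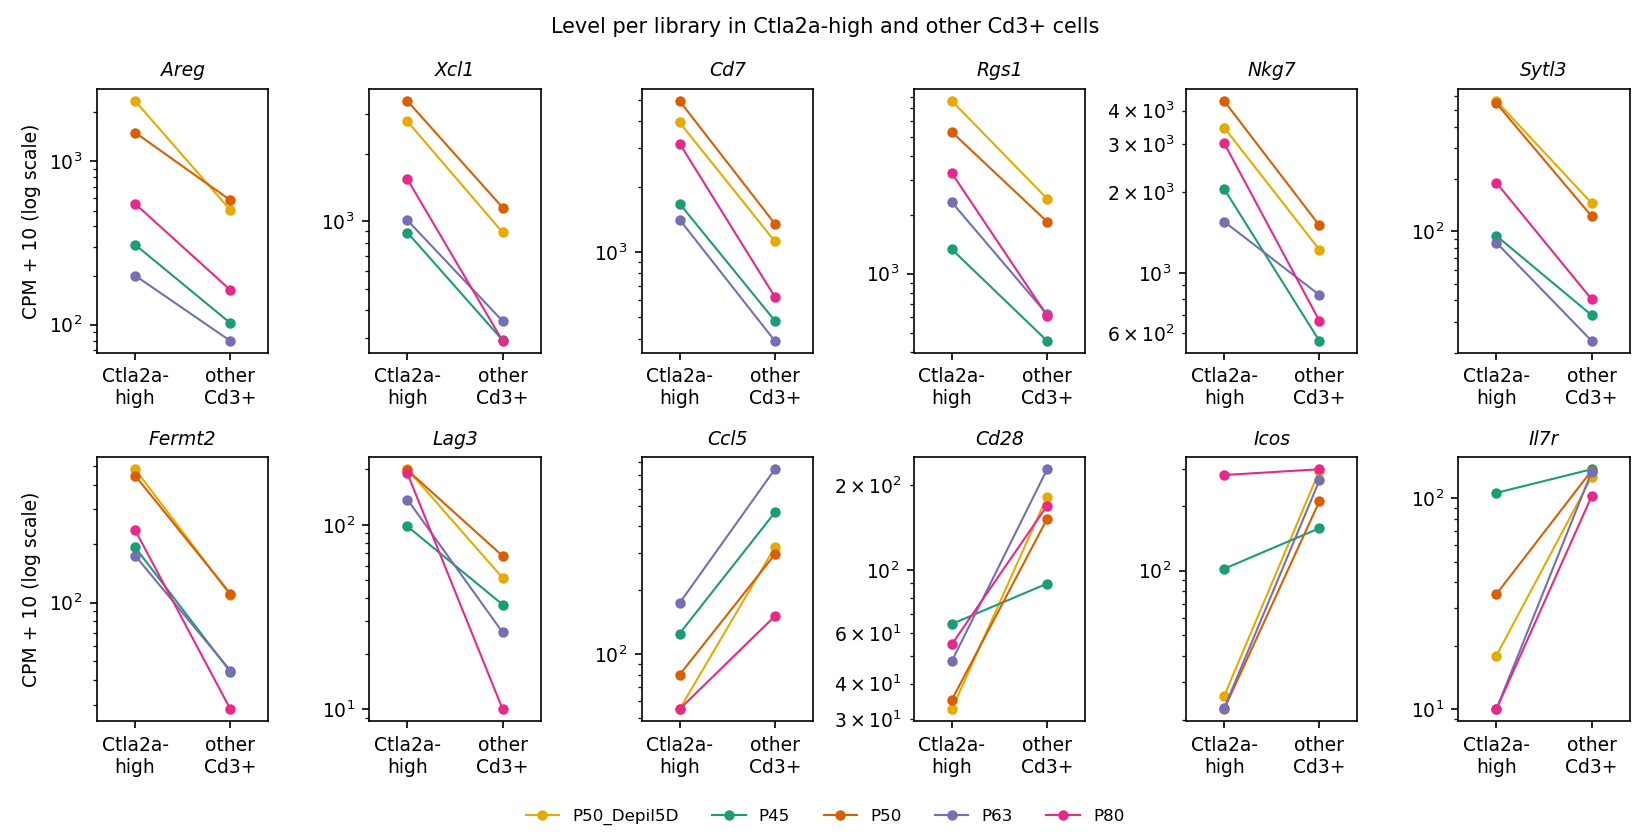
Level (CPM + 10, log axis) of 12 genes in Ctla2a-high cells (left of each panel) and other Cd3+ cells (right). Each line joins the populations of 1 library. The first 8 genes slope down and Ccl5, Cd28, Icos and Il7r slope up, in each of the 5 libraries, with Icos nearly level in P80 (270 against 288 CPM).

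Components of T cell receptor signalling were higher in part. Of 24 genes tested 10 were higher and 3 lower, with a median log2 fold change of 0.62, where 8.02% of all genes were higher and 6.24% lower. Against other Cd3+ cells that differ in Ctla2a alone, 2 of 17 were higher and 1 was lower, where 5.34% of all genes were higher and 4.69% lower. Cd247, the zeta chain, had 758, 292, 842, 493 and 495 CPM in Ctla2a-high cells of P50_Depil5D, P45, P50, P63 and P80, against 215, 105, 303, 134 and 153 CPM in other Cd3+ cells. The ranges met at the 292 CPM of P45 and the 303 CPM of the other cells of P50 (log2 1.57 ± 0.16, adjusted p = 1.8e-06, edgeR). Ptpn6, the phosphatase SHP-1, averaged 319 against 120 CPM. Since Cd3 UMIs were part of the rule and Ctla2a-high cells carried more of them, the rule is not independent of this group of genes.

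Cd28 and Icos, costimulatory receptors, were lower. Cd28 had 22.5, 54.8, 25.1, 38 and 45 CPM in Ctla2a-high cells of P50_Depil5D, P45, P50, P63 and P80, against 172, 79.9, 142, 217 and 159 CPM in other Cd3+ cells, with no overlap (log2 -2.03 ± 0.30, adjusted p = 0.00013, edgeR). Icos had 15.9, 92.0, 12.5, 12.7 and 270 CPM, against 283, 148, 201, 254 and 288 CPM (log2 -2.50 ± 0.42, adjusted p = 0.00045, edgeR). The Icos value of P80 stood apart from the other 4 Ctla2a-high values and rests on 6 UMIs. Ctla4 averaged 25.4 against 104 CPM and Tnfrsf4, the receptor OX40, 44.9 against 138 CPM, and both were also lower against cells that differ in Ctla2a alone (edgeR adjusted p = 0.0047 and 0.0068).

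Of the cytokine receptors, Il2rb and Il12rb2 were higher and Il7r was among the lower ones. Il2rb, the beta chain for interleukins 2 and 15, had 402, 160, 389, 240 and 270 CPM in Ctla2a-high cells of P50_Depil5D, P45, P50, P63 and P80, against 138, 52.4, 184, 88.3 and 73.5 CPM in other Cd3+ cells. The ranges met only between 160 CPM in P45 and 184 CPM in P50 (log2 1.37 ± 0.17, adjusted p = 1.5e-05, edgeR). Il7r had 7.93, 95.9, 25.1, 0 and 0 CPM, against 116, 127, 125, 123 and 91.9 CPM (log2 -1.95 ± 0.39, adjusted p = 0.002, edgeR). In P45 the Il7r values of both populations were close. Cish, a STAT5-induced feedback inhibitor, averaged 15.9 against 97.1 CPM, and Il12rb2, a chain of the interleukin 12 receptor, 105 against 22.0 CPM. Of 24 cytokine receptor and JAK-STAT genes tested, 2 were higher and 6 lower. The higher share was near the 8.02% of all genes, and the lower share was above the 6.24% of all genes.

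Transcription factors of T cell lineages showed 2 of 21 higher and 6 lower. The higher share was near the 8.02% of all genes, while 6.24% of all genes were lower. Runx3 and Nfil3 were the higher ones. Ikzf3, Aiolos, averaged 14.2 CPM in Ctla2a-high cells against 60.8 CPM in other Cd3+ cells (log2 -2.87 ± 0.44, adjusted p = 0.0002, edgeR), and Gata3 54.2 against 136 CPM (log2 -0.94 ± 0.24, adjusted p = 0.011, edgeR). Rora, Runx1, Maf and Bcl11b were also lower, and without P50 or without P50_Depil5D the call for Gata3 was lost. Type 17 gamma-delta T cell genes were lower in 3 of 8 tested (Il7r, Ramp1, Maf), conventional T cell genes in 3 of 7 (Ms4a6b, Cd28, Klf2) and regulatory T cell genes in 4 of 7 (Ctla4, Tnfrsf4, Il2ra, Cd81), and the others were not called.

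Immediate early genes did not move together. Of 33 tested, 3 were higher and 7 lower, with a median log2 fold change of -0.12, and Fos, Jun, Junb and Egr1 were not called. The higher share was near the 8.02% of all genes, and the lower share was above the 6.24% of all genes. Rgs2 had 4210, 1210, 3610, 1000 and 1170 CPM in Ctla2a-high cells of P50_Depil5D, P45, P50, P63 and P80, against 1340, 437, 1110, 367 and 276 CPM in other Cd3+ cells (log2 1.55 ± 0.14, adjusted p = 5.3e-07, edgeR). Nr4a2, an orphan nuclear receptor, averaged 502 against 199 CPM (log2 1.17 ± 0.16, adjusted p = 5.9e-05, edgeR). Klf2 and Nfkbiz were lower, with log2 fold changes of -1.01 and -1.02. Of 6 regulators of G protein signalling tested, Rgs1 and Rgs2 were the ones called. Rgs1 had been picked as a marker from these data, and Rgs2 was also counted among the immediate early genes. Heat shock genes showed 3 of 15 higher and 1 lower, adhesion and residency genes 2 of 15 higher and 1 lower, and inhibitory receptors 2 of 6 higher and 2 lower. Of all genes tested, 8.02% were higher and 6.24% lower. Against other Cd3+ cells that differ in Ctla2a alone, the 13 heat shock genes tested were not called, and of 14 adhesion and residency genes 2 were lower and the others were not called.

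The largest differences over all genes named several transcripts outside these lists. Cela1, a pancreas-type elastase, averaged 150 CPM in Ctla2a-high cells against 19.7 CPM in other Cd3+ cells (log2 2.54 ± 0.25, adjusted p = 1.8e-06, edgeR). Fermt2, the integrin activator kindlin-2, had 472, 182, 437, 164 and 225 CPM in Ctla2a-high cells of P50_Depil5D, P45, P50, P63 and P80, against 99.4, 34.1, 101, 34.8 and 18.4 CPM, and the populations did not overlap (log2 2.25 ± 0.18, adjusted p = 1.2e-07, edgeR). Wbscr16 averaged 201 against 32.7 CPM, Fam174b 247 against 63.7 CPM, the fibrillar collagen Col27a1 147 against 25.1 CPM, the kinase Matk 201 against 45.5 CPM, the SNARE protein Vamp5 103 against 21.7 CPM and the microtubule protein Map2 102 against 19.4 CPM. All 8 were higher in each of the 5 libraries and kept their call against cells that differ in Ctla2a alone.

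The largest falls were in part fixed by the rule. Cell cycle genes were lower in 10 of 11 tested, among them Ube2c, Birc5, Rrm2 and Ccnb2, but the 5 that could be tested against cells that differ in Ctla2a alone, where Mki67 and Top2a were at 0 in both populations, were not called. Stmn1 averaged 114 CPM in Ctla2a-high cells against 592 CPM in other Cd3+ cells, and its log2 fold change was -2.11 in the whole comparison and 0.45 in the narrower one. Genes that were lower in both included Bcl2a1b, a relative of Bcl-2 (43.0 against 174 CPM), Ifi27l2a, an interferon-induced gene (50.9 against 240 CPM), Ptpn18 (108 against 275 CPM) and Gmfg (56.6 against 130 CPM). Bcl2a1b has near-identical copies, so its counts are uncertain.

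**Figure D4:**
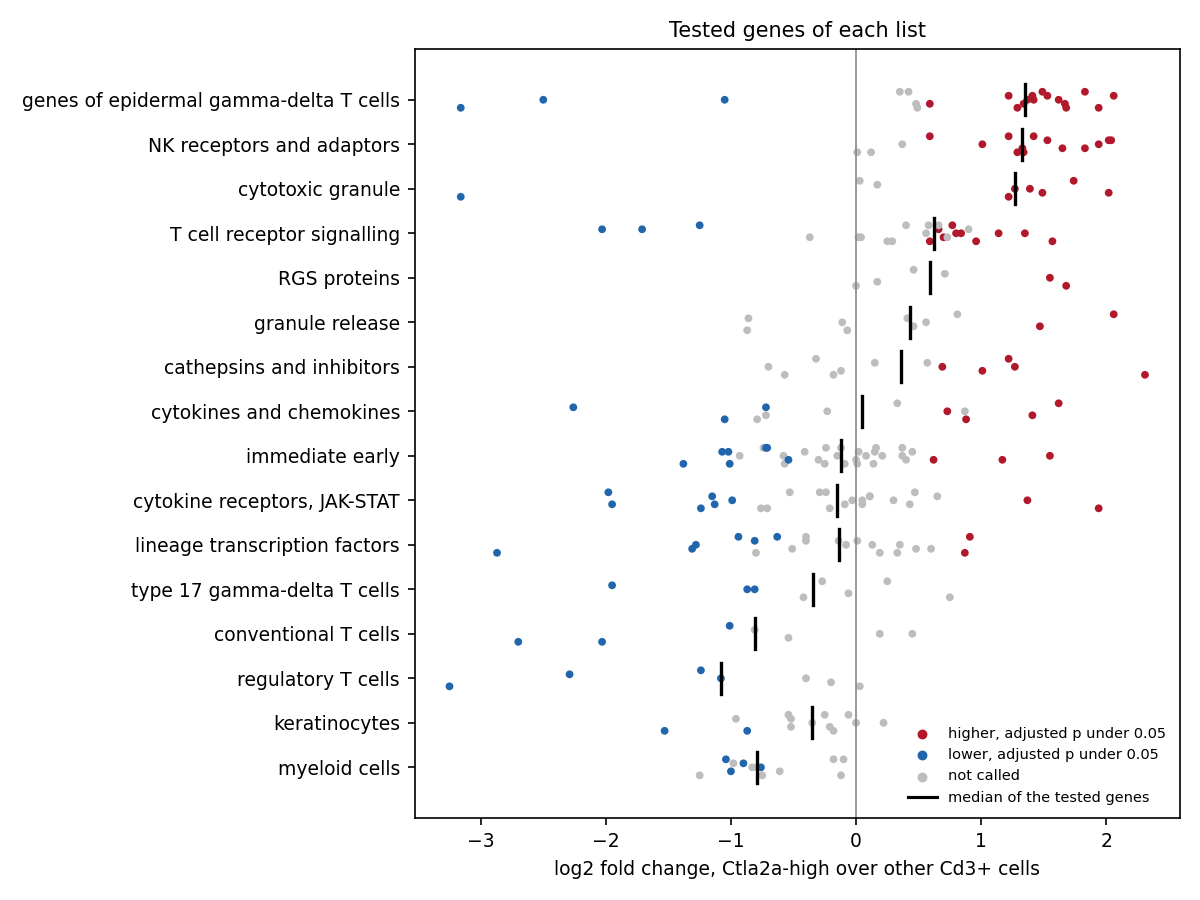
Log2 fold change of Ctla2a-high over other Cd3+ cells (x axis) for the tested genes of 16 lists (y axis). Each point is a gene, red when higher and blue when lower at an adjusted p under 0.05, and black bars are list medians. NK receptors (median 1.33) and genes of epidermal gamma-delta T cells (1.35) lie right of 0, and immediate early genes spread on both sides (-0.12).

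Transcripts of other cell types were found in both populations. The 18 myeloid markers summed to 30600 CPM in Ctla2a-high cells of P45 and 2120 to 6620 CPM in those of the other 4 libraries, and to 26000 CPM and 6380 to 10800 CPM in other Cd3+ cells. In P45, 86.0% of Ctla2a-high cells and 83.8% of other Cd3+ cells had 5 or more myeloid UMIs, against at most 35.7% of Ctla2a-high cells in the other libraries. Of these markers 4 of 13 tested were lower in Ctla2a-high cells, among them Cd74 (adjusted p = 0.018, edgeR), a call lost without P80, without P50_Depil5D, without shared barcodes, without cycling cells (edgeR adjusted p = 0.062) and against cells that differ in Ctla2a alone (edgeR adjusted p = 0.11). The 14 keratinocyte markers summed to 4960 to 20900 CPM in Ctla2a-high cells, highest in P63, and 8490 to 16800 CPM in other Cd3+ cells. Krt79 and Lgals7 were lower among 13 tested, and both calls were lost against cells that differ in Ctla2a alone (edgeR adjusted p = 0.5 and 0.53). The 5 Langerhans cell markers summed to 90.0 to 346 CPM and 171 to 287 CPM, and the stroma markers to 34.4 to 554 CPM and 38.6 to 557 CPM. Without cells that held 5 or more keratinocyte and myeloid UMIs, 257 of 1269 genes tested were higher and 223 lower. That setting kept 96 of the 2142 cells of P45, 18 of them Ctla2a-high. The part these transcripts have in single calls was not tested.

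P50_Depil5D was compared with P50 for the levels within Ctla2a-high cells. A gene was called when its CPM differed by 2-fold or more, reached 50 CPM in the higher library and had an exact 95% interval of the ratio that left out 1. Of 2668 genes at 50 CPM, 46 (1.72%) were higher and 42 (1.57%) lower in P50_Depil5D, with a median log2 ratio of -0.04. In other Cd3+ cells 1.39% were higher and 1.31% lower. There was 1 library per group, so no p-value is given, and UMIs of 1 cell are not independent.

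Areg was the label's marker with the largest ratio and fell short of 2-fold. It had 2330 CPM in P50_Depil5D and 1490 CPM in P50, a ratio of 1.56 (1.44 to 1.70). In other Cd3+ cells of the same libraries the ratio was 0.868 (0.745 to 1.01), and the difference between these ratios was not tested. Areg was detected in 54.1% of 449 Ctla2a-high cells of P50_Depil5D (49.4 to 58.8) and 47.0% of 362 of P50 (41.7 to 52.2), and after thinning to 1000 UMIs in 55.1% and 46.0%. Cells with 5 or more Areg UMIs made up 28.1% in P50_Depil5D and 18.0% in P50, and 9.68% and 9.65% among other Cd3+ cells. No single cell carried the difference, since the highest held 2.95% of the Areg UMIs of P50_Depil5D and 4.80% of those of P50.

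Rgs1, Rgs2 and Nr4a2 had ratios above 1 in both populations. Rgs1 had 7580 CPM in P50_Depil5D and 5260 CPM in P50, a ratio of 1.44 (1.38 to 1.51) in Ctla2a-high cells and 1.31 in other Cd3+ cells. Nr4a2 stood at 1.45 and 1.47, and Rgs2 at 1.16 and 1.20. Some genes stood below 1 in both: Xcl1 at 0.812 and 0.776, Nkg7 at 0.797 and 0.814, and Cd7 at 0.795 and 0.828, with Ctla2a at 0.800 and 0.773 as a description. Other receptor and granule genes did not, such as Serpinb6b at 1.22 and 2.32 and Il2rb at 1.03 and 0.75. Sytl3 did not differ beyond counting error (1.03, interval 0.888 to 1.20).

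**Figure D5:**
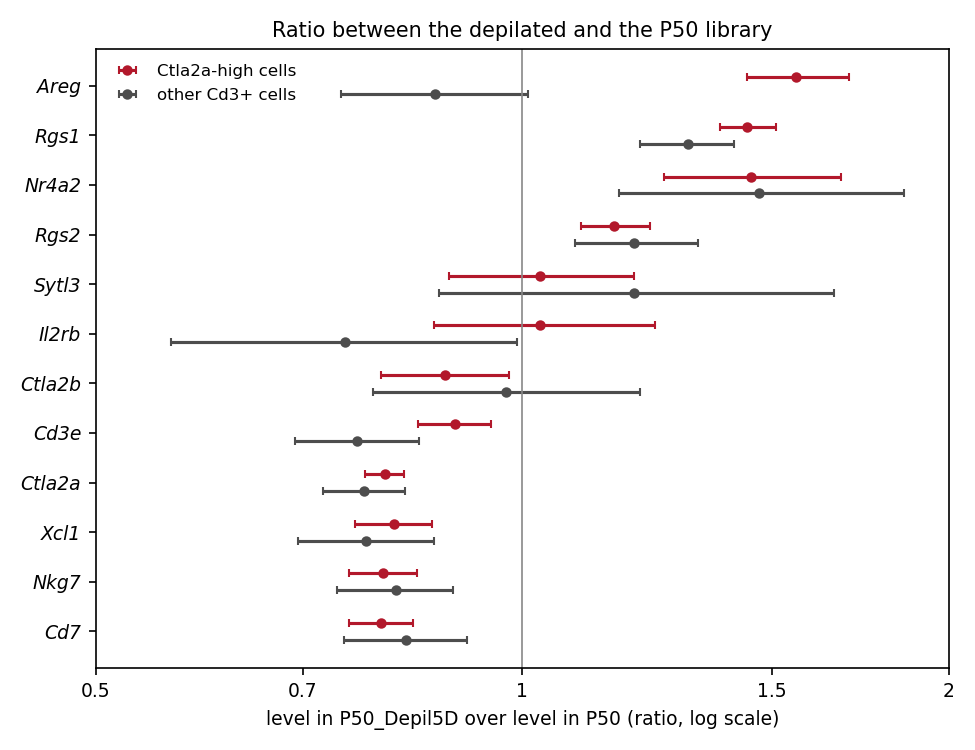
Ratio of the level in P50_Depil5D to the level in P50 (x axis, log scale) for 12 genes, in Ctla2a-high cells (red) and other Cd3+ cells (grey). Lines are exact 95% intervals, which cover counting error only. Areg lies at 1.56 in red and 0.868 in grey, where the grey interval (0.745 to 1.01) holds 1. Il2rb also lies on both sides of 1, at 1.03 in red, with an interval that holds 1, and 0.75 in grey. The other genes lie on the same side of 1 in both.

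Many of the called genes rested on few cells. The largest rises were Krt10, Ccl8, Ifi202b, Plet1, Serpinb2, Dmkn, Thbs1 and Havcr2, and the largest falls Retnla, Defb6, Krt79, Cst6, Il1b, Sostdc1, Apoc1 and Plin3. Krt10, a keratin of differentiating keratinocytes, had 77 UMIs in P50_Depil5D, 83.1% of them in 1 of 10 cells, against 4 UMIs in P50. Retnla, a gene of alternatively activated macrophages, had 1 UMI in P50_Depil5D against 128 in P50, of which 1 cell held 90.6%. Without cells holding 5 or more keratinocyte and myeloid UMIs, the ratio of Il1b was 4.61 and that of Krt10 0.768, although Krt10 is itself among the keratinocyte genes of that filter.

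Genes seen in at least 20 cells of the higher library with at most 20% of their UMIs in 1 cell numbered 25 of the 46 and 27 of the 42, a limit set after the values had been seen. Havcr2, the inhibitory receptor TIM-3, had 58 UMIs in 47 cells of P50_Depil5D and 10 UMIs in 8 cells of P50, a ratio of 4.28 (2.17 to 9.40). Sgk1, a kinase induced by glucocorticoids, had 163 UMIs in 112 cells and 46 UMIs in 38 cells, a ratio of 2.62 (1.88 to 3.71). Gadd45a, a stress-induced growth arrest gene, stood at 2.44 (1.61 to 3.8) and Cd163l1, a scavenger receptor of gamma-delta T cells, at 3.32 (1.65 to 7.39). In other Cd3+ cells these 4 ratios were 2.38, 1.27, 1.54 and 0.683.

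Among the falls seen in at least 20 cells, Prf1 had 24 UMIs in P50_Depil5D and 36 in P50, a ratio of 0.492 (0.281 to 0.848). Itgb2, the shared beta chain of leukocyte integrins, stood at 0.492 (0.288 to 0.829) and Hsd11b1, which regenerates glucocorticoid, at 0.485 (0.324 to 0.720). Hbegf, a further ligand of the epidermal growth factor receptor, had 71 UMIs in 14 cells of P50_Depil5D and 18 UMIs in 7 cells of P50. It was detected in 2.99% of Ctla2a-high cells, 5.29% of other Cd3+ cells and 23.2% of keratinocyte-gated cells over all libraries, and the part of free keratinocyte RNA in it was not tested.

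P50 differed from P45 in many more genes of the Ctla2a-high cells. Of 2856 genes, 345 (12.1%) were higher and 275 (9.63%) lower in P50, and the median log2 ratio of all genes was 0.11. In other Cd3+ cells 7.0% were higher and 7.53% lower. Areg had 1490 CPM in P50 and 299 CPM in P45, a ratio of 4.98 (4.19 to 5.96), and in other Cd3+ cells the ratio was 6.15. Sytl3 stood at 6.35 (4.60 to 8.95), Rgs1 at 3.99 (3.67 to 4.34), Xcl1 at 3.90 (3.51 to 4.33), Cd7 at 2.99 (2.77 to 3.24) and Nkg7 at 2.12 (1.97 to 2.29). In other Cd3+ cells these were 4.90, 4.12, 3.99, 2.82 and 2.71, so the same genes were higher in P50 in both populations.

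Of the genes outside the lists, Smim3 had the largest rise, with 69 UMIs in 64 cells of P50 and 6 UMIs in 6 cells of P45, a ratio of 10.5 (4.60 to 29.7). Rasl11b, Jmy, Sap30, Memo1, Fam71b and the interferon-induced Isg15 followed at 6.46 to 8.55. The largest falls were of genes with 0 UMIs in P50: the haemoglobin gene Hbb-bs was at least 34.2-fold lower than in P45, against a floor of 3 counts in P50, and Plac8 and Igfbp7 at least 19.7-fold and 17.8-fold lower. All 13 myeloid markers at 50 CPM were lower in P50 as well. The myeloid transcripts of P45 noted above add UMIs to the total on which its CPM are based, and their part in these ratios was not tested.

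The levels of P63 and P80 rest on 28 and 13 Ctla2a-high cells. In P63, 434 of 3439 genes (12.6%) were higher and 184 (5.35%) lower than in P45, with a median log2 ratio of 0.22, against 7.18% and 5.14% in other Cd3+ cells. In P80, 327 of 3157 genes (10.4%) were higher and 68 (2.15%) lower, with a median of 0.33, against 11.4% and 7.18% in other Cd3+ cells. Most of these rises rested on single cells: 391 of the 434 in P63 and 316 of the 327 in P80 had over 20% of their UMIs in 1 cell. Of the falls, 26 of 184 and 5 of 68 had over 20% of their P45 UMIs in 1 cell. Rgs1 had 3240 CPM in P80 and 1320 CPM in P45, a ratio of 2.45 (1.90 to 3.13), which was 0.781 after thinning to 1000 UMIs, where 4 cells of P80 remained. Gzmc, a granzyme, had 0 UMIs in P80 and 1157 UMIs in 55 cells of P45, and was at least 16.8-fold lower in P80.

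Libraries were also described by shared barcodes, ribosomal pseudogenes and sex-linked genes. Of the Ctla2a-high cells 12 carried a barcode that occurred in another library too, and 834 of all cells kept did, mostly between P50_Depil5D, P50, P63 and P80. Without shared barcodes 414 genes were higher and 344 lower. The share of ribosomal protein pseudogenes was taken of the UMIs of these pseudogenes and their parent genes together, not of all UMIs. Its median per Ctla2a-high cell was 3.57%, 7.30%, 3.91%, 18.5% and 25% in P50_Depil5D, P45, P50, P63 and P80. Transcripts of the Y-linked genes Ddx3y, Eif2s3y and Uty were present in all 5 libraries, and Xist had 1 UMI in the Ctla2a-high cells of P45 and 0 in those of the others. With 1 library per group, the differences in barcodes and pseudogenes cannot be told apart from the groups.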

How the data were processed

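The deposited files held whole-number UMI counts per gene and cell barcode for 5 libraries, with 27998 genes. Reads were placed on mm10, and Seurat is listed with neither a version nor a purpose, per the submitters' processing notes. For the aligner, the counting tool and the cell calling, settings were not given in the sources used here. Of the gene identifiers 27645 matched GENCODE vM21, which gave the gene coordinates. The cells, markers and gene lists were chosen with earlier results of these data known.

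Limits of 200 genes as a minimum and 10% mitochondrial UMIs as a maximum left out 61 of 6223 barcodes. No doublet caller was run, and an alternative left out cells with 5 or more keratinocyte and myeloid UMIs. Summed Ctla2a-high cells held 756158, 511129, 558272, 79035 and 22220 UMIs in P50_Depil5D, P45, P50, P63 and P80, and other Cd3+ cells 163302 to 1526820. CPM are counts per 1000000 UMIs of the summed population. edgeR 4.0.16 (R 4.3.3) was run on the counts with TMM factors, filterByExpr and library as a block, with Benjamini-Hochberg adjustment. DESeq2 1.42.0 was an alternative. Other alternatives changed the thresholds, the comparison cells, the depth per cell, the filters, the scaling and the libraries used. Between libraries only exact 95% intervals were computed (scipy 1.17.1), and a floor of 3 counts in the library at 0 gave the bounds. The keratinocyte gate required 10 or more UMIs of Krt14, Krt5 and Krt15, and 0 of Cd3 and Ptprc. Tested on simulated data for the comparison of the populations with 5078 genes, edgeR recovered 97.7% of 86 genes changed by a log2 fold of 2 and 16.7% of 90 changed by 1, and 3.88% of its calls were false. The simulation gave every gene the same spread, so this false share need not hold for the calls reported here.

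Genes were named by a rule: the label's markers and rule genes. From each list came up to 4 called genes of the largest fold change, with at least 1 on the log2 scale, 50 CPM and the same direction in all 5 libraries, or else up to 2 of the highest level. Over all genes came up to 12 in each direction with at least 100 CPM, and between libraries up to 8 in each direction. Other genes named above were chosen after their values were seen.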

Additional observations from a re-analysis of the deposited data

Results flagged for a closer look

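For 10 genes, 1 of the 5 libraries lay far from the others in the log2 difference between Ctla2a-high and other Cd3+ cells. Chance flags about 1 in 20 groups of values in this way. In P80 the difference was 2.34 for Cd7, 2.40 for Xcl1, 3.86 for Klrb1f, 3.87 for Cela1 and 3.05 for Fermt2, above the other 4 libraries. In P80 it was -4.49 for Gata3, -4.71 for Epcam and -5.78 for Stmn1, below the other 4. All 8 values rest on 13 Ctla2a-high cells of P80 with 22220 UMIs, and Gata3, Epcam and Stmn1 had 0 UMIs in them. In P63 the difference was 1.34 for Cd9 and 0.37 for the keratinocyte gene Lgals7, where keratinocyte markers summed to 20900 CPM in 28 Ctla2a-high cells.

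For 3 of the named genes the ratio of P50_Depil5D to P50 lay on opposite sides of 1 in the populations with both 95% intervals leaving out 1, and the difference between populations was not tested. Ccl8 stood at 13 in Ctla2a-high cells, from 106 UMIs in 4 cells of P50_Depil5D against 6 UMIs in 6 cells of P50, and had 0 UMIs in other Cd3+ cells of P50_Depil5D. Ptpn18 stood at 0.599 in Ctla2a-high cells and 1.29 in other Cd3+ cells. Hist1h2ap stood at 0.533 in Ctla2a-high cells and 1.33 in other Cd3+ cells.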

How the results depend on the processing

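Of 1609 values of 73 named genes over the alternatives, 1517 kept their direction and side of the threshold, 55 lost the call, 15 gained one and 22 turned round. Genes higher in Ctla2a-high cells numbered 410, and 245 against other cells with 0 Ctla2a, 203 without cycling cells, 172 against cells that differ in Ctla2a alone, 251 after thinning to 1000 UMIs, 720 at 15 Ctla2a per 10000 UMIs, 257 without keratinocyte and myeloid UMIs, 271 with DESeq2, and 183 to 477 leaving out a library. Genes lower numbered 319, and 514 at a Cd3 threshold of 1, 151 against cells that differ in Ctla2a alone, 671 at 15 per 10000 UMIs, 558 with no filter, and 77 to 414 leaving out a library. The populations were paired by library, and without this library block 127 were higher and 61 lower. Between libraries no paired analysis was possible because each group was 1 library. The causes were not tested.

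The log2 fold changes that turned round were small or of low genes: Hspa8 0.08 without P80 (-0.10 to 0.08 leaving out a library); Cd9 -0.36, Id2 0.25 and Mfge8 -0.14 at 15 per 10000 UMIs; Cd44 -0.01 after thinning; Id2 0.04 and 0.02, Tyrobp -0.03 and Mfge8 -0.16 at other Cd3 thresholds; Tyrobp -0.18 at a Ctla2a threshold of 10; Tmem176a -0.32 against cells with 0 Ctla2a, -0.04 without cycling cells and -0.14 against cells that differ in Ctla2a alone; H2-Ab1 0.24 without keratinocyte and myeloid UMIs; Epcam 0.13 without shared barcodes; Mfge8 -0.29 (to 0.83 leaving out a library) and Sparc 0.20 (from -0.40) without P50; Sparc 0.17 at a Ctla2a threshold of 3 and 0.05 without the library block; Hist1h2ap 0.17 and Stmn1 0.34 without cycling cells, and Stmn1 0.45 against cells that differ in Ctla2a alone.

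Between P50_Depil5D and P50 the counts of 46 higher and 42 lower were 71 and 68 at a Ctla2a threshold of 10, with Apoc1 at 1.11, Ccl8 at 0.253 and Cst6 at 1.01, and Cst6 at 1.05 with 15 per 10000 UMIs. They were 92 lower after thinning, 70 higher without cells of low ribosomal pseudogene share, where Areg stood at 1.82, and 80 higher with TMM scaling. Over all alternatives the Areg ratio was 1.47 to 1.82. Without keratinocyte and myeloid UMIs Ccl8 stood at 0.256, Il1b at 4.61, Krt10 at 0.768 and Sostdc1 at 1.54. Between P80 and P45 the counts of 327 and 68 were 105 and 18 after thinning, 119 and 31 without keratinocyte and myeloid UMIs, and 123 and 396 with TMM scaling. There Il1b stood at 1.09 at a Ctla2a threshold of 3, Rgs1 at 0.819 at 10 and 0.781 after thinning, and Adm and Serpinb2 at 0 without shared barcodes. The share ratio of P80 over P45 was 1.23 at 15 per 10000 UMIs. Few Ctla2a-high cells, 28 and 13, limit P63 and P80.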
